A study of Rattus norvegicus with 24 samples.

Results

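Rat lung from a smoky coal model of lung cancer was profiled by mRNA sequencing, and the 6 samples lettered G were compared here with the 6 lettered A, 12 of the 24 samples of the series, across 30667 genes. Smoky coal is bituminous, and polycyclic aromatic hydrocarbons are abundant in its smoke. Sample titles join a letter, which is A, B, C or G, to a number between 1 and 6, and the members were chosen by letter. All 24 samples carry the same tissue label and the same protocol label, smoky coal. No strain, genotype, age, sex, dose, time or control is given for any letter, and nothing says that samples come from separate animals. In the main fit p-values therefore measure the spread left among all 24 samples after letter and number are removed. That spread may be technical. The sample number entered the model as a block, which means that G1 was compared with A1, G2 with A2 and so on. No label says what a number stands for.

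Several pathways that smoke or stress can touch in lung are known from other work. The aryl hydrocarbon receptor (AhR) binds polycyclic aromatic hydrocarbons and switches on cytochrome P450 genes together with its own repressor, Ahrr. The glucocorticoid receptor, which responds to adrenal hormone, switches on genes such as Tsc22d3, Per1 and Errfi1 in many tissues, lung among them. Lung also holds blood in its capillaries, so its RNA includes transcripts of young red blood cells.

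Values are normalized read counts per gene, and fold changes were taken between values of log2(normalized count + 1), so changes of low genes are understated. Totals of normalized counts were 61717516 to 65023747 per sample over the 12 samples, and how deeply each was sequenced is unknown. The tissue label held against its markers: over the 12 samples Sftpc, the surfactant protein C gene of alveolar type 2 cells, ranged from 603887 to 932776 normalized counts, and the type 1 cell gene Ager from 112843 to 185212. Among the A samples A4 stood apart in skeletal muscle genes, with a summed level of 153130 over 16 genes where the next A sample had 11662, and in basal and squamous genes, with 38187 over 18 genes against 21273. Its cardiac muscle genes summed to 84412 over 14 genes, against at most 10239 in the other A samples. A2 stood apart in neutrophil and acute phase genes (62072 over 16 genes against 15586) and in interferon-stimulated genes (173299 over 24 genes against 72820). Calls that were lost without number 4 are therefore named below, and a list's median is also given where leaving out number 4 or number 2 moved it by more than 0.1.

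With the number as a block, 391 of 30667 genes (1.27%) differed between G and A at a Benjamini-Hochberg adjusted p under 0.05 in limma, and these are referred to as called. G was higher in 209 (0.682% of all genes) and lower in 182 (0.593%). The block was needed for nearly all of them: without it 2 genes were called (0.00652%), Ahrr and Errfi1, and 366 of the 391 had an unadjusted p under 0.05. A fit to the 12 samples alone, with the block, called 17 (0.0555%). Differences were mostly small, with a median absolute log2 fold change of 0.43 among the called genes. For 52 of them it exceeded 1, with 19 higher and 33 lower in G, and for 225 it was under 0.5. In 345 of the 391 genes all 6 same-number differences had the same sign, which held for 7.18% of all genes, and in the other 46 it was 5 of 6. The 6 A and 6 G values did not overlap in 72 of the called genes and in 143 of all genes (0.466%). Choosing genes by this test favours both patterns among the called genes. The median log2 fold change over all genes was -0.01, with 51.2% below 0.

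**Figure D1:**
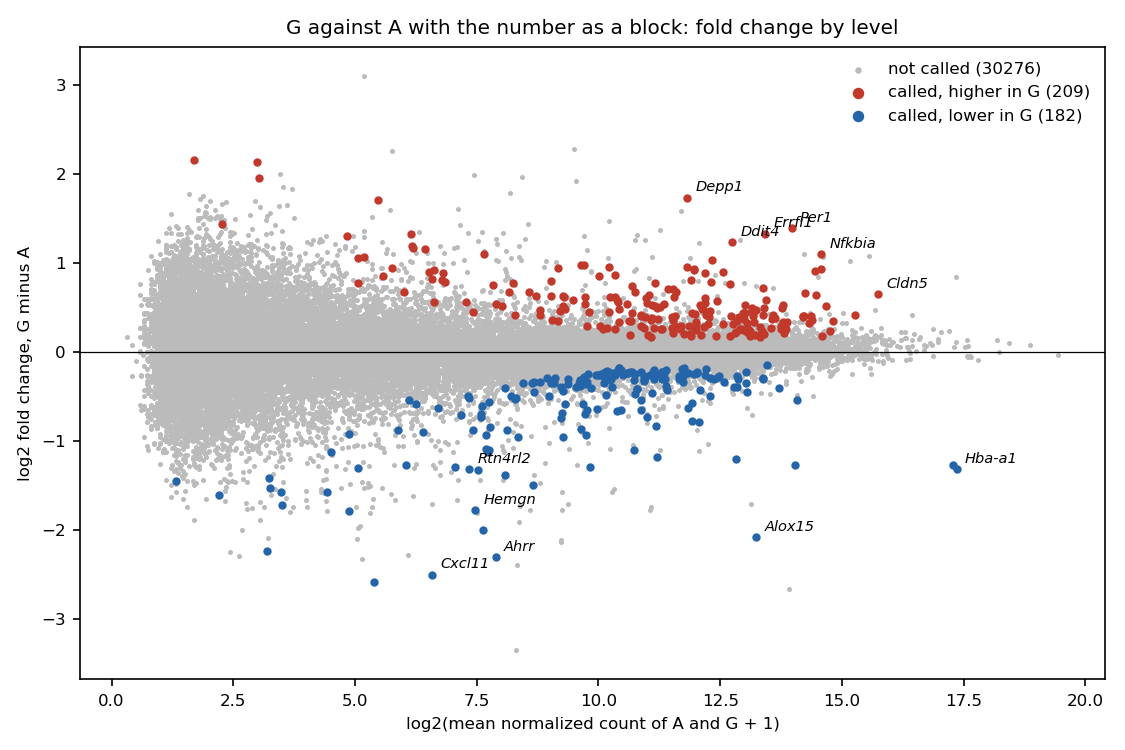
Log2 fold change of G minus A (vertical axis) against the log2 mean normalized count of the 12 samples plus 1 (horizontal axis), with 1 point per gene. Red points are the 209 genes called higher in G, blue points the 182 called lower, and grey points were not called. Called genes of moderate and high level lie mostly within 1 log2 unit of 0, and Ahrr, Alox15 and the haemoglobin gene Hba-a1 lie well below it.

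Number 4 was removed as a check, because A4 carries the muscle and squamous transcripts. Without it 74 genes were called (0.241%), and 68 of these were among the 391. All 391 kept their direction and an unadjusted p under 0.05 without number 4. Those genes were chosen in the full fit, which shares most of its samples with this one, so both outcomes were favoured in advance. Leaving out A4 alone, with the other samples numbered 4 kept, gave 280 called genes, and leaving out G4 alone gave 98. The smaller count without number 4 is therefore not a measure of A4. The count also fell when other numbers were left out, to 105 without number 1, 233 without number 2, 200 without number 3, 44 without number 5 and 309 without number 6, and each of these fits has fewer samples. Leaving out numbers 2 and 4 together, a choice made after seeing the data, left 18 called genes. The 391 genes kept their direction there as well, and 390 of them had an unadjusted p under 0.05, with the same limit.

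**Figure D2:**
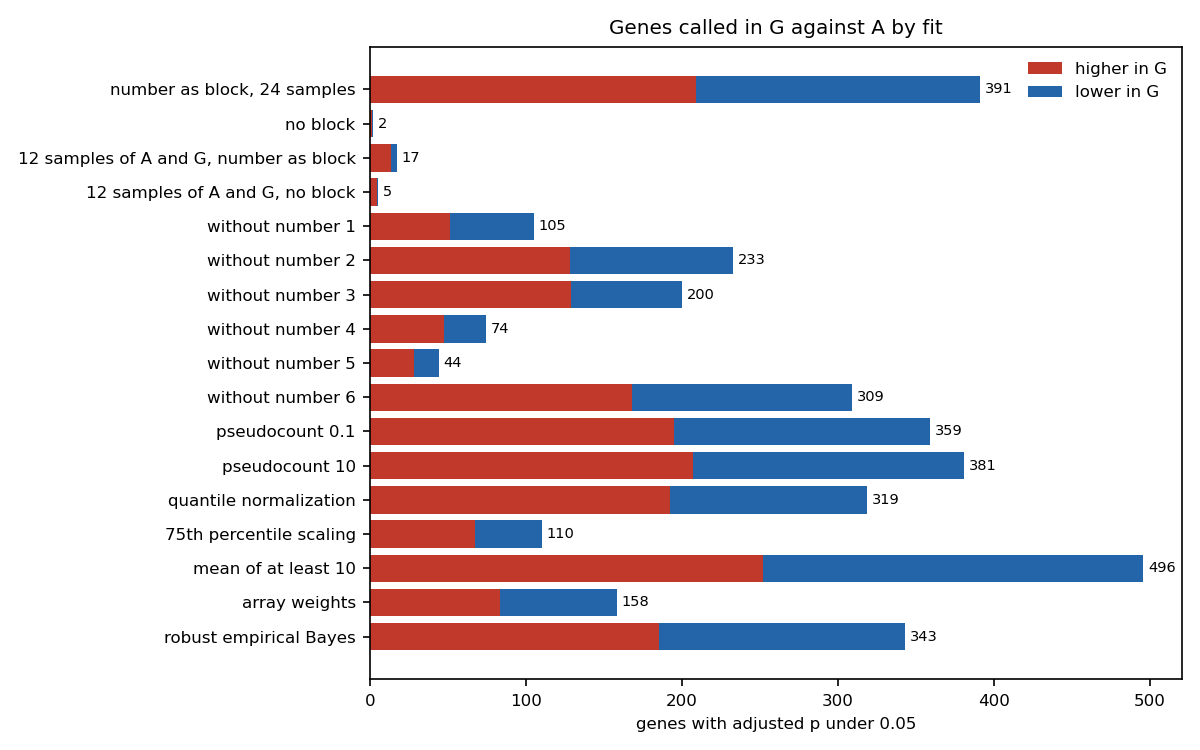
Number of genes with an adjusted p under 0.05 (horizontal axis) under each fit of G against A (vertical axis), split into higher (red) and lower (blue) in G. The count is 391 with the number as a block, 2 without it and 74 without number 4.

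Of the 46 gene lists examined, the one with the largest share called higher held genes that glucocorticoids are known to induce. Of its 33 genes 12 were called higher in G (36.4%, against 0.682% of all genes) and 0 lower, 27 had a fold change above 0, and the median log2 fold change was 0.31 against -0.01 over all genes. All 46 lists were drawn up with earlier results of these data known. Their counts are therefore not independent evidence of a direction. Errfi1, from which the comparison started together with Ahrr, is among the 12. Calls in the lists below are to be set against the same shares of all genes, 0.682% higher and 0.593% lower. Counts at an unadjusted p under 0.05 are to be set against 4648 of all 30667 genes in the main limma fit. The same count was 4371 of 30647 genes without number 4, and 3883 of 30663 without number 2. Summed over the 33 genes, normalized counts were 216279 to 302243 in A and 330882 to 397135 in G. The summed ranges did not overlap, and G was higher in 6 of 6 numbers. In the fit to the 12 samples alone only 3 members were called in limma, Errfi1, Cdkn1a and Per1 (adjusted p = 0.0141, 0.0138 and 0.0482). Without the block it was 1, Errfi1. In the fit to all 24 samples but number 4 the list had 8 called members, all higher, and a median of 0.37. Without number 2 it had 10, with a median of 0.26, and without numbers 2 and 4 it had 2, with a median of 0.37.

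In what follows, 3 values given for a letter are its lowest, median and highest sample in normalized counts. Errfi1, an inhibitor of the epidermal growth factor receptor that glucocorticoids also induce, had 4183, 6646 and 8315 in A and 12310, 16289 and 17971 in G. All G samples exceeded all A samples, and A2 and A4 were the lowest. The fold was 2.51 (log2 fold change 1.33, SE 0.15, limma adjusted p = 0.000494), and without number 4 the log2 fold change was 1.19 (adjusted p = 0.00603). Cdkn1a, which encodes the cell cycle inhibitor p21, had 2393, 2582 and 3394 in A and 3977, 5270 and 6113 in G. Its A samples lay close together and all below G, with a log2 fold change of 0.92 (SE 0.11, adjusted p = 0.000563) that was 0.89 without number 4 (adjusted p = 0.0144).

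Per1, a clock repressor with direct glucocorticoid control, had 4751, 9985 and 13620 in A and 17816, 22000 and 29302 in G. The groups did not overlap, A4 was the lowest A sample and G6 the highest G sample. Its log2 fold change was 1.39 (SE 0.23, adjusted p = 0.0076), and 1.21 without number 4 (adjusted p = 0.0393). Nfkbia, which encodes the inhibitor that holds NF-kB in the cytoplasm, had 11949, 14854 and 20456 in A and 23870, 31995 and 44172 in G. Its groups did not overlap either, and G4 was the highest of the 12. The log2 fold change was 1.09 (SE 0.18, adjusted p = 0.0076), and 0.94 without number 4 (adjusted p = 0.0347).

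Tsc22d3, whose product GILZ mediates anti-inflammatory glucocorticoid effects, had 7277, 16085 and 23984 in A and 20630, 29303 and 34345 in G. A2 was far below the other A samples, and A3 exceeded the lowest G sample, G6, so the groups overlapped. Its log2 fold change of 0.91 (SE 0.16, adjusted p = 0.00895) was 0.97 without number 4 (adjusted p = 0.0347) and 0.67 without number 2 (adjusted p = 0.0182). Klf15, a transcription factor of amino acid and glucose metabolism, had 1026, 2331 and 4088 in A and 3114, 5055 and 5590 in G. Its groups overlapped and every G sample exceeded the A sample of its number (log2 fold change 0.96, SE 0.17, adjusted p = 0.0124). Ddit4, an inhibitor of the growth kinase mTORC1, had 2569, 4135 and 5860 in A and 6451, 10188 and 11744 in G. Its groups did not overlap (log2 fold change 1.23, SE 0.23, adjusted p = 0.0127), and without number 4 the gene was no longer called (1.07, adjusted p = 0.0629).

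Arrdc3, an arrestin-like adaptor, had 11225, 18014 and 21922 in A and 23215, 30767 and 39875 in G. The groups did not overlap, and the log2 fold change of 0.93 (adjusted p = 0.0076) was 0.79 without number 4 (adjusted p = 0.0347). The remaining 4 called members were the kinase genes Map3k6 (0.88) and Sgk1 (0.47), the transcription factor gene Klf9 (0.65) and the stress response gene Gadd45b (0.48), with adjusted p-values from 0.0143 to 0.0383. Of these 4, Map3k6 alone was called without number 4 (adjusted p = 0.044) and Sgk1 alone without number 2 (adjusted p = 0.0355). Some members known for large glucocorticoid responses elsewhere were not called. Fkbp5, a co-chaperone of the receptor, had 937, 1706 and 4810 in A and 1234, 2502 and 3256 in G, with a log2 fold change of 0.20 (adjusted p = 0.829). G was higher in 3 of 6 numbers for Fkbp5, in 4 of 6 for the transcription factor gene Zbtb16 (0.86, SE 0.75, adjusted p = 0.628), and in 5 of 6 for the phosphatase gene Dusp1 (0.11, adjusted p = 0.853). Nr3c1, which encodes the receptor itself, had a log2 fold change of 0.11 (adjusted p = 0.433).

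**Figure D3:**
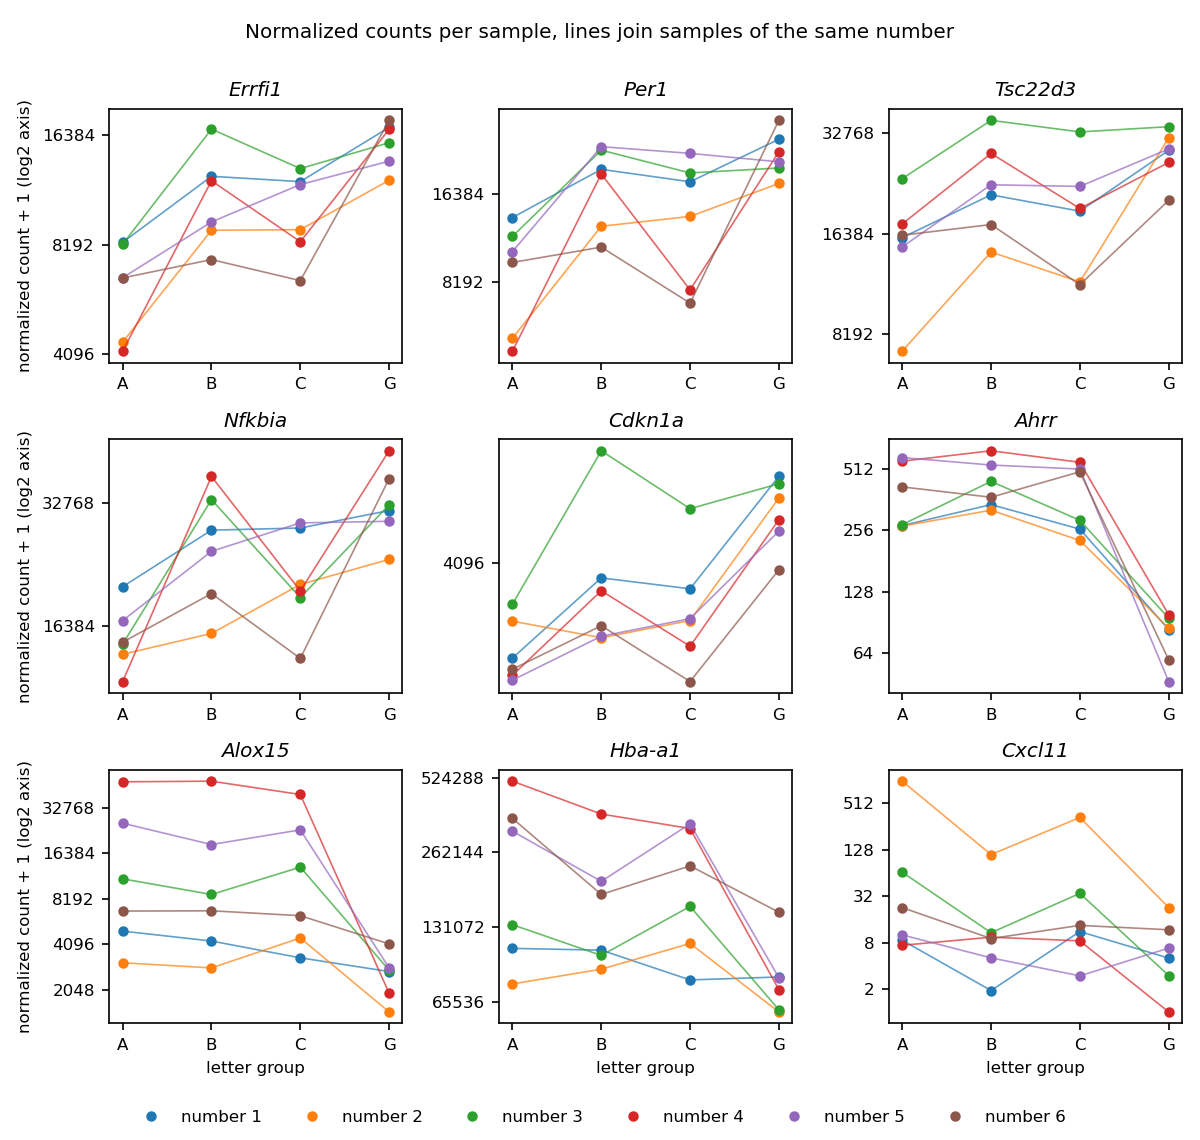
Normalized counts plus 1 on a log2 axis (vertical) by letter (horizontal) for 9 genes, with 1 point per sample and lines joining samples of the same number. For Errfi1, Per1, Nfkbia and Cdkn1a all G points lie above all A points, Ahrr is low in the 6 G samples alone, and the lines of Alox15 and Hba-a1 spread more widely in A, B and C than in G.

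The B and C samples were set beside these. In the same model B against A and C against A called 0 genes in limma (2405 and 1997 at an unadjusted p under 0.05). Its calls were 2 (0.00652%) in G against B and 11 (0.0359%) in G against C, with 2283 and 2471 before adjustment. By the count before adjustment, G against B thus lay below B against A. These comparisons share samples with G against A, so their values are only placed side by side. For the 33 glucocorticoid-responsive genes the median log2 fold change was 0.12 in G against B, 0.22 in G against C, 0.16 in B against A and 0.18 in C against A. Errfi1 ranged from 7456 to 17002 in B and from 6530 to 13251 in C, overlapping both A and G. For 363 of the 391 called genes the means of B and C both lay between those of A and G, a position that choosing genes by their A and G values favours; it held for 27.7% of all genes. Ahrr was outside this pattern: with a mean of 441 in B and 389 in C, it was low in G alone, and its log2 fold change was -2.51 when G was set against B (adjusted p = 6e-06) and -2.28 when set against C (adjusted p = 3.16e-05).

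Ahrr itself, the repressor that AhR induces, had 268, 345 and 583 in A and 45.4, 83.2 and 97.8 in G. No values overlapped, and A was 4.97-fold higher (log2 fold change -2.31, SE 0.21, adjusted p = 2.51e-05). Of 14 AhR targets and partners 2 were called lower (14.3%, against 0.593% of all genes) and 0 higher, 11 lay below 0 and the median was -0.41. Ahrr, from which the comparison started, is itself among these 2, so the share is not independent evidence. The other called gene was Nqo1, a quinone reductase shared with the NRF2 pathway, at 2339, 2828 and 4368 in A and 2062, 2277 and 2553 in G. Its groups overlapped and G was lower in 6 of 6 numbers (-0.43, SE 0.09, adjusted p = 0.0263), and the call was lost without number 4 (-0.34, adjusted p = 0.0831). The enzymes that oxidize the coal hydrocarbons did not pass the test. Cyp1a1 had 1982, 4906 and 12331 in A and 1080, 2620 and 4160 in G (-0.88, SE 0.34, adjusted p = 0.217), and G was lower in 4 of 6 numbers. Cyp1b1 had 900, 1091 and 2311 in A and 631, 818 and 967 in G (-0.64, SE 0.17, adjusted p = 0.0679). A4 held the highest A value of both, and without number 4 the log2 fold changes were -0.52 and -0.47. Without number 4 Ahrr was the only called gene of the list, at -2.27 (adjusted p = 0.00179), and the list's median was -0.31.

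Nfe2l2, which encodes the oxidative stress regulator NRF2, was called lower, at 10727, 11761 and 13262 in A and 8696, 9368 and 10522 in G. The groups did not overlap, although the change was small (-0.30, SE 0.05, adjusted p = 0.0076; -0.28 without number 4, adjusted p = 0.0347). Among 23 of its target genes Nqo1 alone was called, 18 lay below 0 and the median was -0.14. Hmox1, the haem-degrading oxygenase, had a log2 fold change of -0.46 (adjusted p = 0.0995).

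Promoter sequences of 3 called genes are given because they hold letters that AhR or the glucocorticoid receptor is known to bind. They are from RefSeq on rat assembly GRCr8, reach from 250 bases before to 50 after the gene's start, and are in lower case with the matches in capitals, read on the plus strand. For Ahrr (chr1:30821969-30822268) the capitals mark the AhR core GCGTG, which starts 142, 117 and 57 bases before the gene's start. For Errfi1 (chr5:166606591-166606890) they mark the longer AhR element TTGCGTG, found on the minus strand 145 bases before the start. For Map3k6 (chr5:150723995-150724294) they mark the palindromic glucocorticoid response element, searched with its less conserved letters left free, 181 bases before the start.
Ahrr: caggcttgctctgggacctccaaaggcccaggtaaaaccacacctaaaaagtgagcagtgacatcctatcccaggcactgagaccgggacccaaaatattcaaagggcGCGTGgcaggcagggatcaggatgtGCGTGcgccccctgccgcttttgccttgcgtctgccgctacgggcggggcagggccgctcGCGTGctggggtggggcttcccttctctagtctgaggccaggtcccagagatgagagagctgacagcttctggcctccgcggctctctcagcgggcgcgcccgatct
Errfi1: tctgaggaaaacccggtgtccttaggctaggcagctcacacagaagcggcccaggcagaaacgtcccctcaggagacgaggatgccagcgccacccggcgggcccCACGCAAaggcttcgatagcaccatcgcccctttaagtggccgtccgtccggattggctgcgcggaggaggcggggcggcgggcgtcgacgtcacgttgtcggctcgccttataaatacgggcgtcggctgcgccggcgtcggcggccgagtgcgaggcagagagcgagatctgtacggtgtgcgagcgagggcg
Map3k6: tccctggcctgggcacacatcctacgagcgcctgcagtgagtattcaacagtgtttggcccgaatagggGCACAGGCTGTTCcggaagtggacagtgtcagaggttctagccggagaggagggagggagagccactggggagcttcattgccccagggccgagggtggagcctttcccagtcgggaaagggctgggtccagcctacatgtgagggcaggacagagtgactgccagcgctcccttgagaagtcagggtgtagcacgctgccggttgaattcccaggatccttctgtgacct
Counting both strands, 29.7% of 33469 rat promoters of the same length hold GCGTG, 1.17% hold TTGCGTG, which contains it, and 0.439% hold the palindromic element. All 12 called glucocorticoid-responsive genes had a promoter in the table; 8 held GCGTG, 1 held TTGCGTG, 1 the palindromic element and 0 the half-site AGAACA, which 20.7% of promoters hold. A match is a description of the letters, not a binding site.

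Circadian genes gave 1 call. Of 16 clock output genes and repressors Per1 alone was called, 10 lay below 0 and the median was -0.08, which became 0.03 without number 4, with 7 below 0. Dbp, a transcription factor driven directly by the clock, had a log2 fold change of -0.81 (adjusted p = 0.192), and Nr1d1, a repressor of the clock activators, -0.56 (adjusted p = 0.454). A4 had the highest A value of Dbp, Nr1d1 and Per2, and B4 and C4 were likewise the highest of their letters. In A4, B4, C4 and G4 Dbp was at 3574, 3198, 3617 and 489. Nr1d1 was at 19850, 14053, 18275 and 6138, and Per2 at 3199, 3036, 2861 and 1035. Without number 4 Dbp, Nr1d1 and Per2 had log2 fold changes of -0.40, -0.33 and 0.02, so that Per2, at -0.25 with all samples (adjusted p = 0.615), changed sign. The 6 clock activators and opposite-phase genes all lay above 0, with a median of 0.35, and 0 were called by limma (4 at an unadjusted p under 0.05). Without number 4 their median was 0.23, all 6 lay above 0 and 0 were called (3 unadjusted). With all samples the lowest adjusted p-values were those of Rora (0.0664) and Npas2 (0.102).

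Growth factor feedback genes went in both directions. Of 22 EGF receptor ligands and feedback inhibitors Errfi1 was called higher, and 3 inhibitors of the downstream kinase pathway were called lower, namely Spry4, Spry2 (-0.28, adjusted p = 0.0371) and Spred1 (-0.23, adjusted p = 0.033). These calls were 4.55% of the list higher and 13.6% lower, against 0.682% and 0.593% of all genes. Spry4 had 3710, 4516 and 6196 in A and 1758, 2498 and 5349 in G. G6 lay within the A range and the other G samples lay below it (-0.78, SE 0.18, adjusted p = 0.0383). All 3 lower calls were lost without number 4, where their log2 fold changes were -0.77, -0.29 and -0.21, and the call of Spry2 was also lost without number 2 (adjusted p = 0.0547). The receptor gene Egfr was at 0.16 (adjusted p = 0.253). Of 25 immediate early genes 0 were called by limma (9 at an unadjusted p under 0.05), and the median of -0.19 was -0.08 without number 2; Egr1 and Egr3 had the log2 fold changes -1.03 and -1.08 (adjusted p = 0.248 and 0.163), lower in G in 6 of 6 numbers. Nab2, a co-repressor of Egr proteins chosen here after its value was seen, was called lower (-0.59, adjusted p = 0.00512), also without number 4 (-0.54, adjusted p = 0.0347).

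Cell cycle and damage genes gave few calls. Among 20 p53 and DNA damage targets Cdkn1a and Sesn1, a stress-induced mTORC1 inhibitor, were called higher, and Zmat3 (-0.26) and the kinase gene Plk3 (-0.65) lower, with a list median of -0.02. The share called was 10% in each direction, against 0.682% of all genes higher and 0.593% lower. Both lower calls were lost without number 4 (adjusted p = 0.0793 for Zmat3 and 0.0766 for Plk3) and without number 2 (0.0907 and 0.119). Sesn1 had a log2 fold change of 0.40 (adjusted p = 0.0076; 0.41 without number 4, adjusted p = 0.0347). Mdm2, a p53 target that marks the response, was at -0.11 (adjusted p = 0.363). Of 23 mitosis and DNA replication genes 0 were called (4 at an unadjusted p under 0.05) and 20 lay below 0; their summed level was 56258 in A2, against at most 24749 in the other A samples, and the list's median of -0.36 was -0.10 without number 2. Of 20 lung cancer driver genes Nfe2l2 was called lower and the receptor kinase gene Ret higher (0.51, adjusted p = 0.0076).

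Of 10 red blood cell genes 4 were called lower in G (40.0%, against 0.593% of all genes), calls that were lost without number 4, and 0 were called higher. All 10 lay below 0, and the median log2 fold change was -1.28. Summed over the list, normalized counts were 156837 to 1084360 in A and 126316 to 313950 in G, lower in G in 6 of 6 numbers with overlapping ranges. In bulk tissue fewer cells of a type and less RNA per cell cannot be told apart. The alpha-globin gene Hba-a1 had 77269, 226464 and 507765 in A and 59554, 77535 and 150314 in G. A4 was the highest A sample and A2 the lowest, and A1, A2 and A3 lay within the range of G (-1.32, SE 0.25, adjusted p = 0.0143). B4 was at 374201, C4 at 327153 and G4 at 73246. Alas2, the haem synthesis enzyme of red cell precursors, had 3145, 8811 and 21628 in A and 2473, 3308 and 6978 in G. A1 and A2 lay within the range of G (-1.21, SE 0.27, adjusted p = 0.0316).

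The other called members were the beta-globin rows Hbb-bs (-1.27) and Hbb-bt (-1.28). Globin genes have near-identical copies and the rows carry mouse names, so how reads were shared among them is uncertain. Without number 4 the list's median was -0.92 and 0 members were called in limma, with 8 at an unadjusted p under 0.05; the adjusted p-values of Hba-a1 and Alas2 were then 0.0577 and 0.09. Without number 2 the median was -1.49 and 5 members were called lower. Hemgn, a nuclear protein of blood precursors, was among the 8 most negative of the well-expressed called genes with a rat RefSeq name. Hemgn had 93.3, 237 and 673 in A and 40.4, 60.4 and 150 in G. Its groups overlapped, with A4 and G6 the highest of their letters (-1.78, SE 0.32, adjusted p = 0.0124), and it was also called without number 4 (-1.33, adjusted p = 0.0144). Further called genes of haem and red cell biology, chosen after their values were seen, were Fech (-0.73), Rbm38 (-1.10), Slc25a39 (-0.39), Glrx5 (-0.42) and Prdx2 (-0.34). Of these 5, Prdx2, a peroxidase abundant in red cells, was also called without number 4 (-0.29, adjusted p = 0.0412).

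Alox15, a lipoxygenase of macrophages and eosinophils, had 3097, 8955 and 48612 in A and 1466, 2739 and 4128 in G. A4 and A5 were far above the other A samples, A2 lay within the range of G, and G was lower in 6 of 6 numbers. A was 4.24-fold higher (log2 fold change -2.08, SE 0.40, adjusted p = 0.0155), and without number 4 the log2 fold change was -1.57 (adjusted p = 0.0347). B ranged from 2865 to 49083 and C from 3340 to 40089, with B4 and C4 the highest, while G4 was at 1949. Of 16 eicosanoid synthesis genes Alox15 and the cyclooxygenase gene Ptgs2 (-1.09, adjusted p = 0.0316) were called lower, 12 lay below 0 and the median was -0.11. Ptgs2 was not called without number 4 (-1.02, adjusted p = 0.105) or without number 2 (-0.86, adjusted p = 0.0991). Among 16 type 2 immunity genes Alox15 and Gata3, a transcription factor of type 2 T cells and innate lymphocytes, were called lower. In this list and in the eicosanoid list 12.5% were called lower, against 0.593% of all genes, and Alox15 counts in both. Gata3 was at -0.70 (adjusted p = 0.0214) with all samples and at -0.63 (adjusted p = 0.0665) without number 4. The type 2 list's median of -0.10 was 0.03 without number 2.

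Lower calls among NF-kB and interferon genes were lost without number 2, and also without number 4. Leaving out number 2 removes B2, C2 and G2 along with A2, and Ccl2 was at 1098 in C2. Of 20 NF-kB feedback and target genes Nfkbia was called higher, the chemokine gene Ccl2 and Tnfaip2 (-0.55) were called lower, and 17 lay below 0 with a median of -0.13. The shares called were 5% higher and 10% lower, against 0.682% and 0.593% of all genes. Without number 2 the list turned direction, with 7 of 20 below 0, a median of 0.05 and 0 called lower (5 at an unadjusted p under 0.05 in either direction). Without number 4 the median was -0.22 and 0 were called lower (4 unadjusted in either direction). Tnfaip2 had an adjusted p of 0.138 without number 2 and of 0.0998 without number 4. Ccl2 had 115, 151 and 3446 in A and 57.9, 79.6 and 193 in G. A2 alone was above 221, and A1, A4, A5 and A6 were within the range of G (-1.50, SE 0.35, adjusted p = 0.0396). Without number 2 its log2 fold change was -0.96 (adjusted p = 0.0965), and without number 4 it was -1.54 (adjusted p = 0.112).

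Of 24 interferon-stimulated genes 2 were called lower (8.33%, against 0.593% of all genes) and 0 higher. All 24 lay below 0, with a median of -0.31. Without number 2 the median was -0.05 and 0 were called by limma (3 at an unadjusted p under 0.05). Without number 4 it was -0.37, with 0 called and 8 unadjusted. Rsad2, an antiviral enzyme, had 750, 1116 and 2640 in A and 385, 404 and 778 in G. A2 was the highest A sample, and G1 lay just inside the A range (-1.29, SE 0.28, adjusted p = 0.0298; -1.01 without number 2, adjusted p = 0.063). The chemokine gene Cxcl11 had 6.38, 15.4 and 983 in A and 0.01, 4.91 and 21.8 in G. These counts are near the bottom of the scale in most samples, and the call (-2.51, SE 0.60, adjusted p = 0.0415) was lost without number 2 (-1.92, adjusted p = 0.169) and without number 4 (-2.43, adjusted p = 0.104).

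Endothelial and lymphocyte genes included a few calls higher in G. Of 19 lung capillary and vascular endothelial genes Cldn5, a tight junction protein, and Gpihbp1, which anchors lipoprotein lipase on capillaries (0.53, adjusted p = 0.0478), were called, 14 lay above 0 and the median was 0.12. The share called higher was 10.5%, against 0.682% of all genes. Gpihbp1 was not called without number 4 (0.46, adjusted p = 0.123) or without number 2 (0.45, adjusted p = 0.118). Cldn5 had 23175, 43339 and 56047 in A and 45412, 63984 and 90892 in G. A2 was low, G2 lay within the A range, and G was higher in 6 of 6 numbers (0.65, SE 0.11, adjusted p = 0.00921; 0.64 without number 4, adjusted p = 0.0413). The general endothelial genes Pecam1 and Cdh5 were at 0.16 and 0.14 (adjusted p = 0.154 and 0.37). Of 20 T and NK cell genes the protease gene Gzmk and the chemokine gene Ccl5 (0.44, adjusted p = 0.0188) were called higher, with a median of 0.11 and 12 above 0. The calls were 10% of the list, against 0.682% of all genes. Without number 4 the list had 0 called by limma (2 at an unadjusted p under 0.05), a median of 0.01 and 10 members on either side of 0. Without number 2 the median was 0.22, with 5 called higher. Ccl5 had an adjusted p of 0.0818 without number 4 and of 0.0521 without number 2. Gzmk had 841, 996 and 1455 in A and 903, 1530 and 2762 in G. The groups overlapped, with A6 and G6 the highest of their letters (0.58, SE 0.10, adjusted p = 0.0076), and without number 4 the adjusted p was 0.0504. The cytotoxic genes Gzma and Prf1 were at 0.33 and 0.29 (adjusted p = 0.205 and 0.196).

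**Figure D4:**
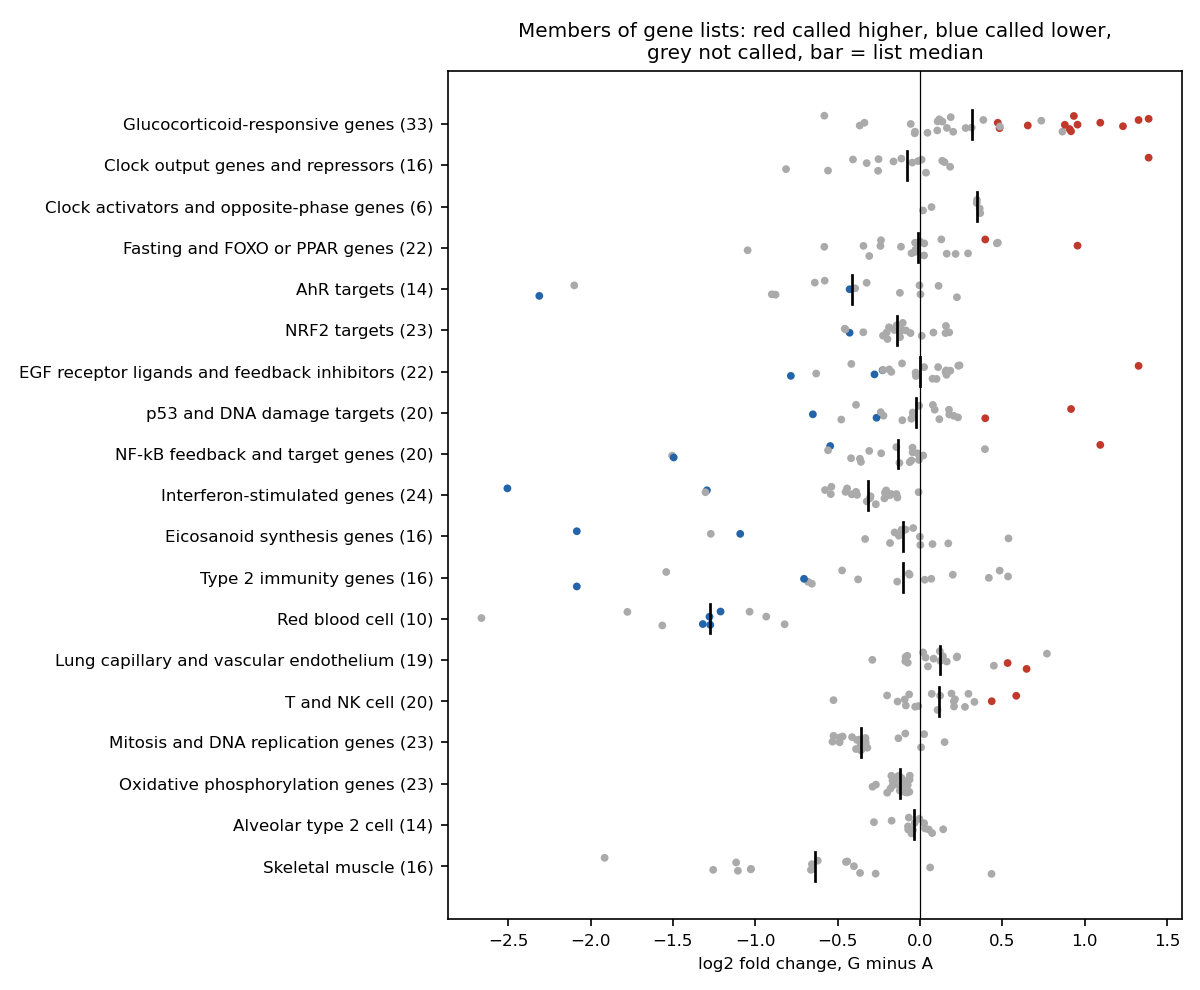
Log2 fold change of G minus A (horizontal axis) for each member of 19 gene lists (vertical axis, number of members found in brackets). Red and blue points are genes called higher and lower in G, grey points were not called, and black bars are list medians, which were 0.31 for the glucocorticoid-responsive genes and -1.28 for the red blood cell genes.

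The rule for naming genes also picked the 8 largest, 8 most negative and 8 most significant changes among well-expressed called genes with a rat RefSeq name. Depp1, a gene that FOXO transcription factors induce on fasting, had the largest rise of these, at 770, 1809 and 2747 in A and 3051, 5634 and 8685 in G. No values overlapped (log2 fold change 1.73, SE 0.30, adjusted p = 0.00921; 1.42 without number 4, adjusted p = 0.0438). Among 22 fasting, FOXO and PPAR genes Klf15 and Sesn1 were called higher (9.09%, against 0.682% of all genes), 10 lay above 0 and the median was -0.01. Npr3, the clearance receptor of natriuretic peptides (1.03), the potassium channel gene Kcnj4 (0.98) and the sulfotransferase gene Gal3st3 (0.97) completed the largest rises beside the genes above. Without number 4 Npr3 and Gal3st3 were still called (adjusted p = 0.0347 for both), and Kcnj4 was not (adjusted p = 0.099). The call of Kcnj4 was kept in 3 of the 6 fits that leave out 1 number.

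Rtn4rl2, a receptor of the Nogo family, had 116, 204 and 478 in A and 67.4, 84.3 and 110 in G. A2 was the highest, and no values overlapped (-1.32, SE 0.19, adjusted p = 0.0047; -1.28 without number 4, adjusted p = 0.0347). Has3, a hyaluronan synthase, was lower by a similar amount (-1.39, adjusted p = 0.0076; -1.41 without number 4). Among the most significant genes were also Arl4a (0.70), a small GTPase, Fhdc1 (0.60), a formin, Cttnbp2nl (0.72), a cortactin-binding protein, and Rasgef1b (0.93), a Ras-family exchange factor. These 4 rose in G with adjusted p-values of 0.00421 to 0.00512, and each was also called without number 4 (0.0144 to 0.0347).

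Syt12, a synaptotagmin, was called lower among 20 members of its family, at 182, 232 and 316 in A and 107, 145 and 172 in G. The groups did not overlap (-0.73, SE 0.12, adjusted p = 0.0076), and the same model also called it with B (-0.82, adjusted p = 0.0106) or C (-0.92, adjusted p = 0.00185) in the place of A. Syt1, another member, was called higher (0.67, adjusted p = 0.0441), though not without number 4 (adjusted p = 0.09) or number 2 (adjusted p = 0.0777). Of 30 semaphorins and plexins, guidance molecules of axons, vessels and immune cells, Sema7a and Sema6d (0.33, adjusted p = 0.0307) were called higher. The 2 calls were 6.67% of the list, against 0.682% of all genes. Sema6d lost its call without number 4 (adjusted p = 0.103) and without number 2 (adjusted p = 0.0677). Sema7a had 4185, 5050 and 5896 in A and 7051, 8309 and 9702 in G. All G samples exceeded all A samples (0.76, SE 0.13, adjusted p = 0.00859; 0.74 without number 4, adjusted p = 0.0499).

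Beside the endothelial, T and NK cell lists above, 9 lists of lung cell types gave no call. Those for alveolar type 1 and type 2, club, ciliated, smooth muscle, fibroblast, macrophage, neutrophil and B cell genes, 140 in all, had 0 called members by limma and 24 at an unadjusted p under 0.05, and their medians lay between -0.35 and 0.18, the lowest that of the club and secretory list, which was -0.04 without number 4. Over all 30667 genes 4648 were at an unadjusted p under 0.05. The neutrophil and acute phase list, where A2 stands apart, turned direction without number 2: its median of -0.16, with 12 of 16 below 0, became 0.22, with 5 of 16 below 0, and without number 4 it was -0.28. The smooth muscle median of 0.15 was 0.26 without number 4. For skeletal muscle and for basal and squamous genes, where A4 stands apart, the medians of -0.64 and -0.66 became 0.28 and -0.15 without number 4, with 0 called in either fit (0 and 3 unadjusted with all samples, 4 and 3 without number 4). Acta1, skeletal muscle actin, had 41069 in A4, at most 2119 in the other A samples, and at most 1005 in G. It was also high in B4, at 11389 against at most 969 in the other B samples, and leaving out number 4 removes B4 too. Krt13, a keratin of squamous epithelium, had 6899 in A4, at most 49.2 in the other A samples and at most 78.6 in G. All 23 oxidative phosphorylation genes lay below 0, with a median of -0.12, 0 called and 12 at an unadjusted p under 0.05. Without number 4 all 23 lay below 0 with 6 unadjusted, and without number 2 it was 22, with a median of -0.08.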

How the data were processed

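RNA of 24 rat lung samples was sequenced, per the labels' protocols. The authors deposited a table of signal values, normalized read counts by their form; the normalization is not given in the sources used here. Per the submitters' processing notes STAR and the mouse build GRCm38 were used, with no role stated, and row names are mouse-style symbols; 16143 of 30667 matched a rat RefSeq symbol. Reads of paralogs and overlapping genes are uncertain. After scaling, values under 7.5 were whole to within 0.1 in 98.3% to 100% of cases, but larger values were not, so count models were not used.

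With limma 3.58.1 in R 4.3.3, a limma-trend model was fitted to log2(value + 1) for genes with a mean of at least 0.5, with letters plus number as a block over all 24 samples, contrast G minus A, two-sided, Benjamini-Hochberg over all genes, threshold 0.05. B and C add only to the estimate of the spread, and with them 391 genes were called against 17 in A and G alone. Scripts were tested on simulated data. Named were Ahrr, Errfi1, the 8 largest, 8 most negative and 8 most significant called genes, and up to 4 members of each of 46 lists. The largest, most negative and most significant were taken among called genes with a mean of at least 100 and the same sign in 6 numbers. Their row names also had to match a rat RefSeq symbol or synonym. A gene that this rule picks is not reported here. The comparison, members and lists were chosen with earlier results of these data known. Alternatives were no block, 12 samples, each number or library left out, other pseudocounts, scalings, filters and weights.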

Additional observations from a re-analysis of the deposited data

Results flagged for a closer look

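Of 56 groups of 6 values examined on the log2 scale (28 genes given above with lowest, median and highest values, in A and in G), 3 held a sample whose gap to its nearest neighbour was too large a part of the group's spread by Dixon's 95% criterion, and chance alone gives about 1 in 20, or 2.8. Acta1 and Krt13, where A4 was far above the other A samples, were not among the 28 genes. The count therefore does not cover the muscle and squamous genes of A4. Hba-a1 reached 150314 normalized counts in G6, where the next G sample had 82410. Ccl2 reached 3446 in A2, where the next A sample had 221. Cldn5 was at 23175 in A2, where the next lowest A sample had 40405.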

How the results depend on the processing

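The count of genes called in G against A depended strongly on the fit. It was 391 with the replicate block and 2 with no replicate block; in the 12 samples of A and G it was 17 with the replicate block and 5 without. Once group means were removed, same-number pairs of A and G correlated at -0.0452 to 0.486 across 21922 genes, and 4 of 6 exceeded 0.1. The numbers do not by themselves pair these samples, and 3 of 6 G samples correlated best with the A sample of their own number. The median was 0.164 for A and G, 0.32 for A and B, 0.436 for A and C and 0.319 for B and C. The spread behind the p-values thus draws on letters that the numbers pair more closely. Whether this makes those p-values too small was not tested. Without the block G against B gave 1 gene and G against C 2, where the block gave 2 and 11. Scaling to the 75th percentile gave 110, array weights 158, and leaving out replicates 2 and 4 gave 18. Leaving out 1 number gave 44 to 309, and leaving out 1 library 98 to 375. Other pseudocounts, quantile normalization, no filter, a mean of at least 10 (496 of 21922 genes) and robust empirical Bayes stayed within 1.5 times. All 391 genes kept their direction in every fit in which they were tested, an outcome that choosing them in the full fit favours. Over 106 called named genes, 0 of 3178 gene and setting pairs reversed and 1234 were no longer called. Among named genes that were not called, 9 pairs reversed: Acta1 was at 0.087 without replicates 2 and 4. With 1 number or library left out Fkbp5 ranged from -0.102 to 0.496, below 0 without number 1, G1 or G2. Dusp1 ranged likewise from -0.0651 to 0.247, below 0 without A2 or A4, and was at -0.0235 with array weights and -0.0788 without replicates 2 and 4. Per2 ranged from -0.437 to 0.0199, above 0 without number 4. The causes were not tested. DESeq2 was not run, because raw counts were not used here. Depth before normalization is unknown, so the counting error of low genes such as Cxcl11 could not be given.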

Other observations

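Some called genes outside the lists, chosen after their values were seen, are regulators of lung and vessel development or of cell state. Snai1, a repressor that drives epithelial cells toward a mesenchymal state, had 2366, 2945 and 3978 normalized counts (lowest, median and highest) in A and 1523, 1585 and 2050 in G. No values overlapped, with a log2 fold change of -0.84 (SE 0.14, limma adjusted p = 0.0076) that was -0.80 without number 4 (adjusted p = 0.0347). Hic1, a tumour suppressor and transcriptional repressor, was lower (-0.66, adjusted p = 0.0076; 0.0401 without number 4), and Hoxa5, a lung patterning factor, was lower with all samples (-0.58, adjusted p = 0.025; 0.0629 without number 4). Irx1, a homeobox factor, was higher (0.59, adjusted p = 0.0154; 0.0438 without number 4). Kl, which encodes Klotho, was higher as well (0.64, adjusted p = 0.00921; 0.0144 without number 4).

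Dmbt1, a mucosal defence protein, was lower in G (-0.94, adjusted p = 0.00782; 0.0347 without number 4), as were the protease gene Tmprss4 (-0.96, adjusted p = 0.015; 0.044 without number 4) and the organic cation transporter gene Slc22a3 (-0.88, adjusted p = 0.012; 0.0347 without number 4). Plat, tissue plasminogen activator, was higher (0.53, adjusted p = 0.0126; 0.0451 without number 4). Cyp4b1, a cytochrome P450 abundant in lung and the called member of 23 drug-metabolizing enzymes, was higher (0.52, adjusted p = 0.00921) and not called without number 4 (0.48, adjusted p = 0.0629). Calls in the remaining lists were few. Trib3, a stress-induced pseudokinase, was called higher among 19 ATF4 and unfolded protein response genes (0.48, adjusted p = 0.0155), Gata2 among 12 mast cell genes (0.49, adjusted p = 0.0226), and Timp3, a metalloproteinase inhibitor, among 22 metalloproteinases and inhibitors (0.42, adjusted p = 0.0361). Without number 4 these 3 were not called (adjusted p = 0.0767, 0.0883 and 0.099), nor was Timp3 without number 2 (adjusted p = 0.111). Lists of TGF-beta and BMP response, Wnt pathway, heat shock, hypoxia and glycolysis, sterol and fatty acid synthesis, ribosomal protein, antigen presentation and complement genes, 152 in all, had 0 called members by limma, 31 at an unadjusted p under 0.05 (4648 of all 30667 genes), and medians between -0.23 and 0.05. The lowest median, that of the complement genes, was -0.08 without number 2; A2 had their highest sum, 238444 normalized counts against at most 167539 in the other A samples. Without number 2 the sterol and fatty acid median of -0.15 was -0.02, the antigen presentation median turned from -0.06 to 0.03, and that of hypoxia and glycolysis from -0.07 to 0.02. The 13 lipid droplet and adipocyte genes, also with 0 called (3 unadjusted), had a median of -0.64 that was -0.15 without number 4 and -0.36 without number 2. The 14 cardiac muscle genes had 7 members on either side of 0 and 0 called (0 unadjusted), but the even split rests on number 4: without it 12 of 13 members tested lay above 0, with a median of 0.67 and 0 called (0 unadjusted). Without number 2 the median was -0.19, with 11 of 14 below 0. Among the G samples G5 stood apart, with a summed cardiac muscle level of 30327 against at most 9558 in the others. Rows with mouse clone or gene-model names gave few calls, 26 of 11663 (0.223%), against 1.92% of the other rows.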
